A study of Rattus norvegicus with 179 samples.

Results

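The comparison described here is that of rats given a probiotic engineered to express angiotensin (1–7) against rats given the same probiotic without the modification, in the hippocampus. Members were chosen by label: of 179 mRNA libraries from 5 tissues, 36 came from the hippocampus, and 24 of these came from rats given either probiotic. The 24 libraries fall into 4 groups of 6 rats. LPSed received unmodified Lactobacillus paracasei and no exercise, LPEx received the same bacteria with treadmill exercise, LPASed received L. paracasei expressing Ang (1–7) and no exercise, and LPAEx received the Ang (1–7) probiotic with exercise. All were male F344BN rats, aged 24 mo when obtained, gavaged 3 times per week for 12 wk. Exercised rats walked on a treadmill 5 days per week at 12 cm/s, and sedentary rats were placed on a treadmill that was switched off. Both arms therefore carried live bacteria, and the contrast is about the peptide-expressing strain relative to its parent, with 1 strain of rat, 1 sex, and 1 parent bacterium. Rats given buffer alone are not part of this comparison.

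Ang (1–7) is a short peptide of the renin-angiotensin system. It acts mainly through the receptor Mas, opposing many actions of angiotensin II at its AT1 receptor. In rodents Mas is strongly expressed in the hippocampus, the part of the forebrain that forms new spatial and episodic memories and whose function declines with age. The question of the comparison is whether the peptide added to the bacterium was accompanied by a different hippocampal transcriptome. The deposited table identifies genes by Ensembl ID alone, and 0 of its 32545 IDs could be paired with a symbol from the reference tables used here. Genes are therefore given by ID with their levels, and neither Mas nor any other gene of the pathway could be looked up by name.

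Total counts per library ranged from 13703813 to 23179688 over the 24 libraries, so a level of 1 CPM (counts scaled to a common library total) corresponded to 13.7 to 23.2 reads. LPA and LP libraries did not differ beyond the spread between rats in depth, in genes detected, in the share of counts held by the 10 highest genes, or in region and tissue scores. Of 27 permutation tests of these measures, the smallest adjusted p was 0.584. It belonged to the share of the 10 highest genes in sedentary rats, 10.2% ± 0.914 in LPASed and 11.8% ± 1.22 in LPSed (SD, n = 6 each; exact permutation p = 0.0303, two-sided), and to the prefrontal score in exercised rats (exact permutation p = 0.0433).

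The label of 1 library went against its genes, and this touches the sedentary comparison, the one with activity as covariate, and the difference between activities. The exercised comparison holds no LPSed library but shares 1 estimate of the spread with the sedentary groups. Region was checked with 100 genes at least 3-fold higher in hippocampus than in prefrontal cortex and 52 genes at least 3-fold higher in prefrontal cortex, both taken from the medians of these same libraries. Each library was scored so that 1 on the hippocampal score is the hippocampal median and 0 the prefrontal median, and the reverse on the prefrontal score. The library labelled LPSed rat 7 scored −0.045 on the hippocampal genes and 1.06 on the prefrontal genes, where a prefrontal library would lie, and it is referred to below by its label. The library of LPSed rat 13 stood between the regions, with 0.653 and 0.591. In LPEx rat 10 and LPAEx rat 4 the hippocampal score was also low, 0.469 and 0.575, without a matching prefrontal score. LPEx rat 10 had the lowest share of counts in brain-enriched genes, 15.3%, against 20.5% to 22.8% in the other LPEx rats, and more liver-enriched counts, 1.09% against 0.293% to 0.41%. The remaining 20 libraries had hippocampal scores between 0.95 and 1.12. Main results below are given with all 24 libraries and without LPSed rats 7 and 13.

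**Figure D1:**
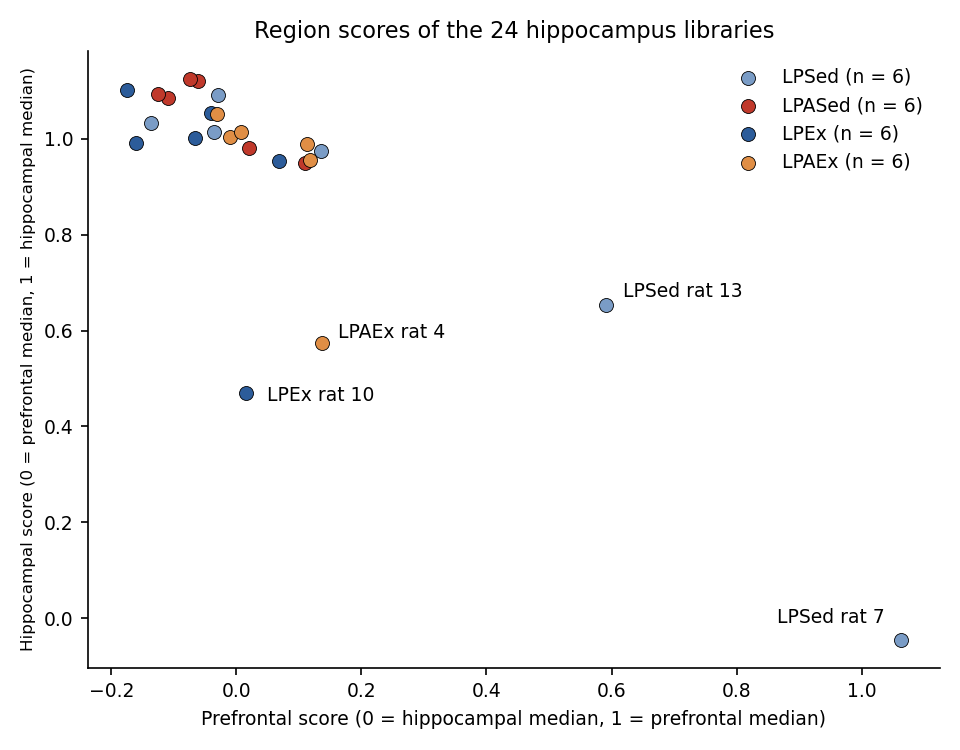
Region scores of the 24 hippocampus libraries, 1 point per rat, coloured by group; the prefrontal score is on the horizontal axis and the hippocampal score on the vertical axis, both as a proportion of the distance between the region medians. LPSed rat 7 lies at 1.06 and −0.045, LPSed rat 13 between the regions, and LPEx rat 10 and LPAEx rat 4 below the cluster at 0.469 and 0.575.

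No DEGs were found between LPA and LP in the hippocampus. With activity as covariate, 0 of 15598 genes tested passed an FDR < 0.10 in edgeR (0% called), and the same held for LPASed versus LPSed (0%), for LPAEx versus LPEx (0%), and for the difference of the LPA effect between activities (0%). At an unadjusted p < 0.05 there were 436 genes (2.80%) in the comparison with activity as covariate, 163 higher and 273 lower in LPA. The corresponding counts were 423 genes (2.71%) for LPASed versus LPSed, 526 (3.37%) for LPAEx versus LPEx, and 509 (3.26%) for the difference between activities. Without LPSed rats 7 and 13, 0 of 15979 genes passed the FDR in any of the 4, and the counts at an unadjusted p < 0.05 were 475 (2.97%), 417 (2.61%), 564 (3.53%), and 467 (2.92%). DESeq2 called 0 genes with activity as covariate, 1 in sedentary rats, 1 in exercised rats, and 1 for the difference, and limma voom called 0 in each. The gene for the difference, ENSRNOG00000023386, reached 17.5 and 7.54 CPM in LPAEx rats 6 and 7. LPSed rats 13 and 5 held 12.2 and 11.1 CPM, and CONSed rat 3, given buffer, held 22.7 CPM. Other fits called ENSRNOG00000013548 and ENSRNOG00000029478 for the difference. The first held 279 CPM in LPEx rat 11, 6.31 to 31 CPM in the other LPEx rats, and up to 97.4 CPM in LPASed. The second was at 0 CPM in LPSed rats 4, 5, 8, and 10 and in LPAEx rat 12, and at most 1.1 CPM in the other probiotic rats. It was not among the 15598 genes tested and was called only without LPSed rats 7 and 13, of which rat 13 held 0.833 CPM. In bulk tissue, fewer cells of a type and less RNA per cell cannot be told apart, for these genes and for those named below.

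How small a change these libraries could resolve depended on the level of the gene. With activity as covariate, the median SE of a log2 fold change was 0.16, and the 95% interval lay inside a 2-fold change in either direction (±1 on the log2 scale) for 12841 genes (82.3%, and 79.3% without LPSed rats 7 and 13). That share was 99.3% of the 2051 genes over 100 CPM, 97.5% of those from 10 to 100 CPM, 69.1% from 1 to 10 CPM, and 4.46% of the 1122 genes under 1 CPM. For most well-expressed genes a 2-fold difference between the arms was thus outside the interval, and for most of the lowest it was not. Within 1 activity, where each arm has 6 rats, the share fell to 71.4% in sedentary and 71.6% in exercised rats. The median log2 fold change over all genes was −0.003, with 5th and 95th percentiles of −0.389 and 0.409.

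**Figure D2:**
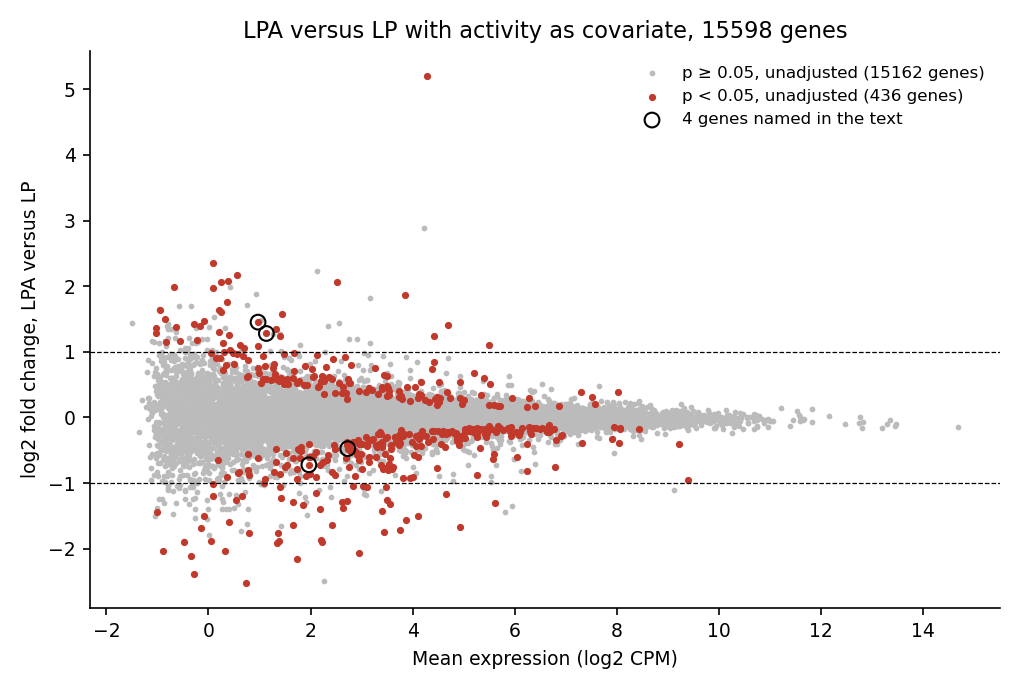
log2 fold change of LPA versus LP with activity as covariate (vertical) against mean expression in log2 CPM (horizontal) for the 15598 genes tested; red points have an unadjusted p < 0.05, open circles mark the 4 genes named for this comparison, and dashed lines mark a 2-fold change. Fold changes narrow toward 0 as expression increases, and none passed the FDR.

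The region genes defined above also differed between LPASed and LPSed, which restates the scores of LPSed rats 7 and 13, since the same genes gave those scores. All 52 prefrontal-over-hippocampus genes had a negative log2 fold change in LPASed versus LPSed, with a median of −1.005, and 30 of the 52 were lower at an unadjusted p < 0.05 beside 2.71% of all genes. The 100 hippocampus-over-prefrontal genes had a median of 0.389. Without LPSed rats 7 and 13 these medians were −0.07 and 0.038, and 3 of the 52 (5.77%) were lower at an unadjusted p < 0.05 beside 2.61% of all genes. With activity as covariate, 46 of the 52 genes had a negative log2 fold change, with a median of −0.337. Of the 52, 10 (19.2%) were lower at an unadjusted p < 0.05 beside 2.80% of all genes. Without LPSed rats 7 and 13 that median was 0.119, and 9.62% passed, 2 higher and 3 lower, beside 2.97% of all genes. For the difference between activities the median of the 52 genes was 1.265. There 23 (44.2%) passed an unadjusted p < 0.05, all higher, beside 3.26% of all genes. Without LPSed rats 7 and 13 the median for the difference was 0.374, and 3 (5.77%) passed, beside 2.92% of all genes. In LPAEx versus LPEx the medians of the 52 and the 100 genes were 0.181 and −0.038. There 4 of the 52 (7.69%) passed an unadjusted p < 0.05, 3 higher and 1 lower in LPAEx, beside 3.37% of all genes, and 9 (17.3%), 8 higher and 1 lower, beside 3.53% without LPSed rats 7 and 13. Brain-enriched genes, 782 in number, had medians of −0.039 in sedentary and 0.009 in exercised rats, and liver-, colon- and muscle-enriched genes had medians between −0.089 and 0.073. In LPAEx versus LPEx, 9.6% of 177 liver-enriched genes had an unadjusted p < 0.05, 11 higher and 6 lower, beside 3.37% of all genes. Colon- and muscle-enriched shares were 5.68% and 4.48%. In LPASed versus LPSed the liver-, colon- and muscle-enriched shares were 3.95%, 4.8%, and 5.22%, beside 2.71% of all genes. None of these genes passed the FDR.

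**Figure D3:**
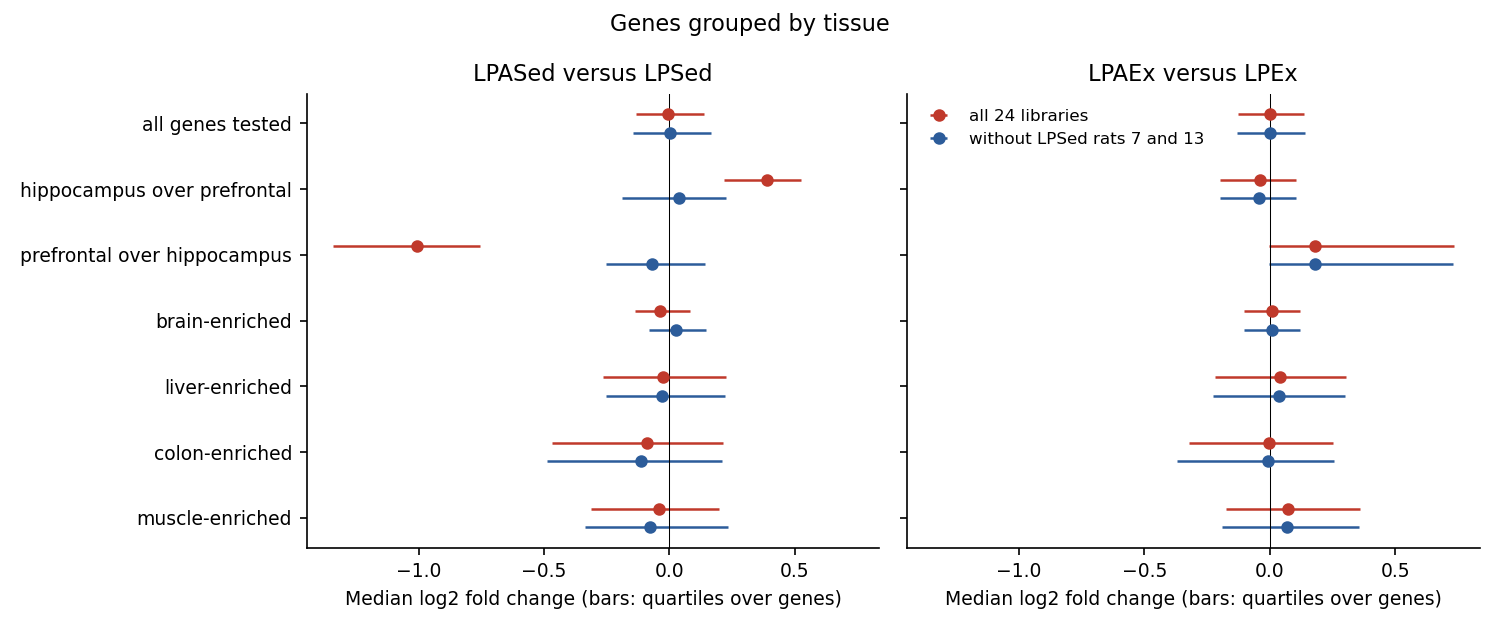
Median log2 fold change (points) and quartiles over genes (bars) of genes grouped by tissue, for LPASed versus LPSed (left) and LPAEx versus LPEx (right), with all 24 libraries (red) and without LPSed rats 7 and 13 (blue). The prefrontal-over-hippocampus genes moved from −1.005 to −0.07 in the sedentary comparison when those libraries were left out.

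Because no gene passed, the 2 genes with the smallest p in each direction are given for each comparison, as genes that did not pass. With activity as covariate, ENSRNOG00000027079 was the gene with the smallest p. Its level had a minimum of 0.646, a median of 2.3, and a maximum of 4.96 CPM in LPA, and of 0.32, 0.962, and 2.3 CPM in LP. The arms overlapped, with 6 of 12 LPA rats above every LP rat, 4 in LPASed and 2 in LPAEx. The log2 fold change was 1.45 (SE 0.372, 95% interval 0.69 to 2.22, FDR = 1.0), and it was 1.59 in sedentary and 1.31 in exercised rats. Without LPSed rats 7 and 13 it was 1.42. For ENSRNOG00000047864, LPA had a minimum of 0.625, a median of 1.72, and a maximum of 10.6 CPM, and LP 0.379, 0.79, and 2.89 CPM. Its highest levels among these rats were in LPAEx rats 7 and 4, at 10.6 and 7.45 CPM, and 11 of 12 LPA rats were above the LP median. That median pools 2 activities with unlike levels. In sedentary rats 6 of 6 LPASed rats were above the LPSed median of 0.572 CPM. In exercised rats 3 LPAEx rats were above and 3 below the LPEx median of 1.81 CPM. Rats given buffer reached 36.1 and 13.8 CPM, in CONSed rats 6 and 7. The estimate was a log2 fold change of 1.28 (SE 0.351, 95% interval 0.56 to 2.0, FDR = 1.0), and 1.29 without LPSed rats 7 and 13.

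In the other direction, ENSRNOG00000022910 had a minimum of 1.52, a median of 2.87, and a maximum of 4.37 CPM in LPA, and 3.06, 4.09, and 8.82 CPM in LP. The arms overlapped, with 5 of 12 LP rats above every LPA rat. The log2 fold change was −0.72 (SE 0.201, 95% interval −1.14 to −0.31, FDR = 1.0) and −0.58 without LPSed rats 7 and 13, of which rat 13 had the highest level. The estimate was −1.02 in sedentary rats and −0.42 in exercised rats, where the 95% interval of −0.99 to 0.15 held 0. ENSRNOG00000009274 had a median of 5.08 CPM in LPA (4.29 to 8.09) and of 7.61 CPM in LP (5.23 to 11.1). It was lower than the LP median in 11 of 12 LPA rats, and its log2 fold change was the same in both activities, −0.48 (SE 0.142 and 95% interval −0.77 to −0.18 with activity as covariate, FDR = 1.0), and −0.54 without LPSed rats 7 and 13. The 4 genes were expressed at 1.06 to 5.85 CPM in the median hippocampus library. In the prefrontal cortex of rats with the same group and number, their log2 fold changes for LPA versus LP were 0.30, −0.57, −0.14, and 0.28, each with a 95% interval that held 0. In exercised rats alone, ENSRNOG00000047864 had a prefrontal log2 fold change of −1.82 (95% interval −3.21 to −0.42, FDR = 0.503), against 1.36 in the hippocampus. That prefrontal value was led by LPEx rat 10, at 9.82 CPM. The other LPEx rats held 0.435 to 1.55 CPM in prefrontal cortex and overlapped LPAEx, at 0.355 to 1.45 CPM.

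In sedentary rats, ENSRNOG00000046295 had the smallest p. It ranged from 1.31 to 3.02 CPM in LPASed, with a median of 2.28, and from 2.15 to 22.3 CPM in LPSed, with a median of 4.56. LPSed rats 7 and 10 held 22.3 and 17.9 CPM, and the other 4 LPSed rats lay between 2.15 and 4.61 CPM, overlapping LPASed. Among rats given buffer, CONEx rat 11 held 29.2 CPM and the other 11 lay between 1.21 and 3.59 CPM. The log2 fold change was −1.997 (SE 0.453, 95% interval −2.93 to −1.06, FDR = 1.0), and −1.60 without LPSed rats 7 and 13. It was the gene that DESeq2 called in this comparison (DESeq2 FDR = 0.0995), and limma voom gave −0.91. ENSRNOG00000060414 had a median of 0.869 CPM in LPASed (0.673 to 1.39) and of 2.69 CPM in LPSed (1.35 to 7.67), with LPSed rat 7 the highest. In the median prefrontal library it stood at 8.29 CPM and in the median hippocampal library at 1.14 CPM. The sedentary comparison gave −1.81 on the log2 scale (SE 0.45, FDR = 1.0), and −1.23 without LPSed rats 7 and 13.

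Of the genes higher in LPASed, ENSRNOG00000024294 ranged from 6.22 to 14 CPM with a median of 11.1, against 4.23 to 8.76 CPM with a median of 5.77 in LPSed. In sedentary rats 5 of 6 LPASed rats were above every LPSed rat, while in exercised rats the medians were 9.0 in LPAEx and 8.58 in LPEx. LPASed versus LPSed gave a log2 fold change of 0.83 (SE 0.227, 95% interval 0.37 to 1.30, FDR = 1.0), the same without LPSed rats 7 and 13, and LPAEx versus LPEx −0.005. The difference between activities, −0.84 (SE 0.319), did not pass either (FDR = 1.0). ENSRNOG00000020532 was near the limit of counting in LPSed, from 0 to 0.343 CPM, and had a median of 0.864 CPM in LPASed. LPASed rat 11 held 5.43 CPM, the others 0.113 to 1.09 CPM, and the log2 fold change of 3.21 (SE 0.927, FDR = 1.0) was 2.03 without that rat and 3.76 without LPSed rats 7 and 13. In exercised rats its log2 fold change was −0.97, with 0.0653 to 1.51 CPM in LPAEx and 0.697 to 4.67 CPM in LPEx. The difference between activities, −4.18 (SE 1.23), did not pass the FDR. Medians in rats given buffer were 0.859 CPM in CONSed and 1.56 CPM in CONEx. The median colon library held 44.8 CPM of this gene, and LPASed rat 11 also had the most liver-enriched counts of the 12 sedentary probiotic libraries, 0.922%. In CONSed rat 4, given buffer, the values were 3.7 CPM and 0.971%. Whether those counts have a part in the result was not tested.

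In exercised rats the named genes were led by 1 or 2 rats. ENSRNOG00000006589 stood at 125 and 129 CPM in LPAEx rats 9 and 12 and at 3.73 to 4.81 CPM in the other 4, and LPEx ranged from 1.85 to 5.09 CPM. The log2 fold change was 3.66 (SE 0.781, 95% interval 2.05 to 5.26, FDR = 1.0), and it was the gene that DESeq2 called (DESeq2 FDR = 0.00856). Among rats given buffer, 1 of 6 sedentary and 1 of 6 exercised rats were high as well, at 37.4 and 48.2 CPM, so the high level was not limited to LPA. ENSRNOG00000021225 stood at 456 CPM in LPAEx rat 4 and at 0 to 1.17 CPM in the other LPAEx rats. The log2 fold change was 8.53 (SE 1.99, FDR = 1.0), and 0.44 without LPAEx rat 4, a library whose hippocampal score was low.

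Both genes named as lower in LPAEx were led by LPEx rat 10. ENSRNOG00000004828 was at 43.3 CPM there and at 1.05 to 2.79 CPM in the other LPEx rats, with 0.298 to 1.96 CPM in LPAEx. Its log2 fold change was −2.88 (SE 0.797, 95% interval −4.53 to −1.24, FDR = 1.0), and −0.59 without that rat. ENSRNOG00000017912 was at 153 CPM in LPEx rat 10 and at 4.76 to 8.96 CPM in the other 5, with 4.32 to 8.36 CPM in LPAEx. The log2 fold change of −2.43 (SE 0.688, FDR = 1.0) was −0.12 without that rat, and the median colon library held 624 CPM of this gene.

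**Figure D4:**
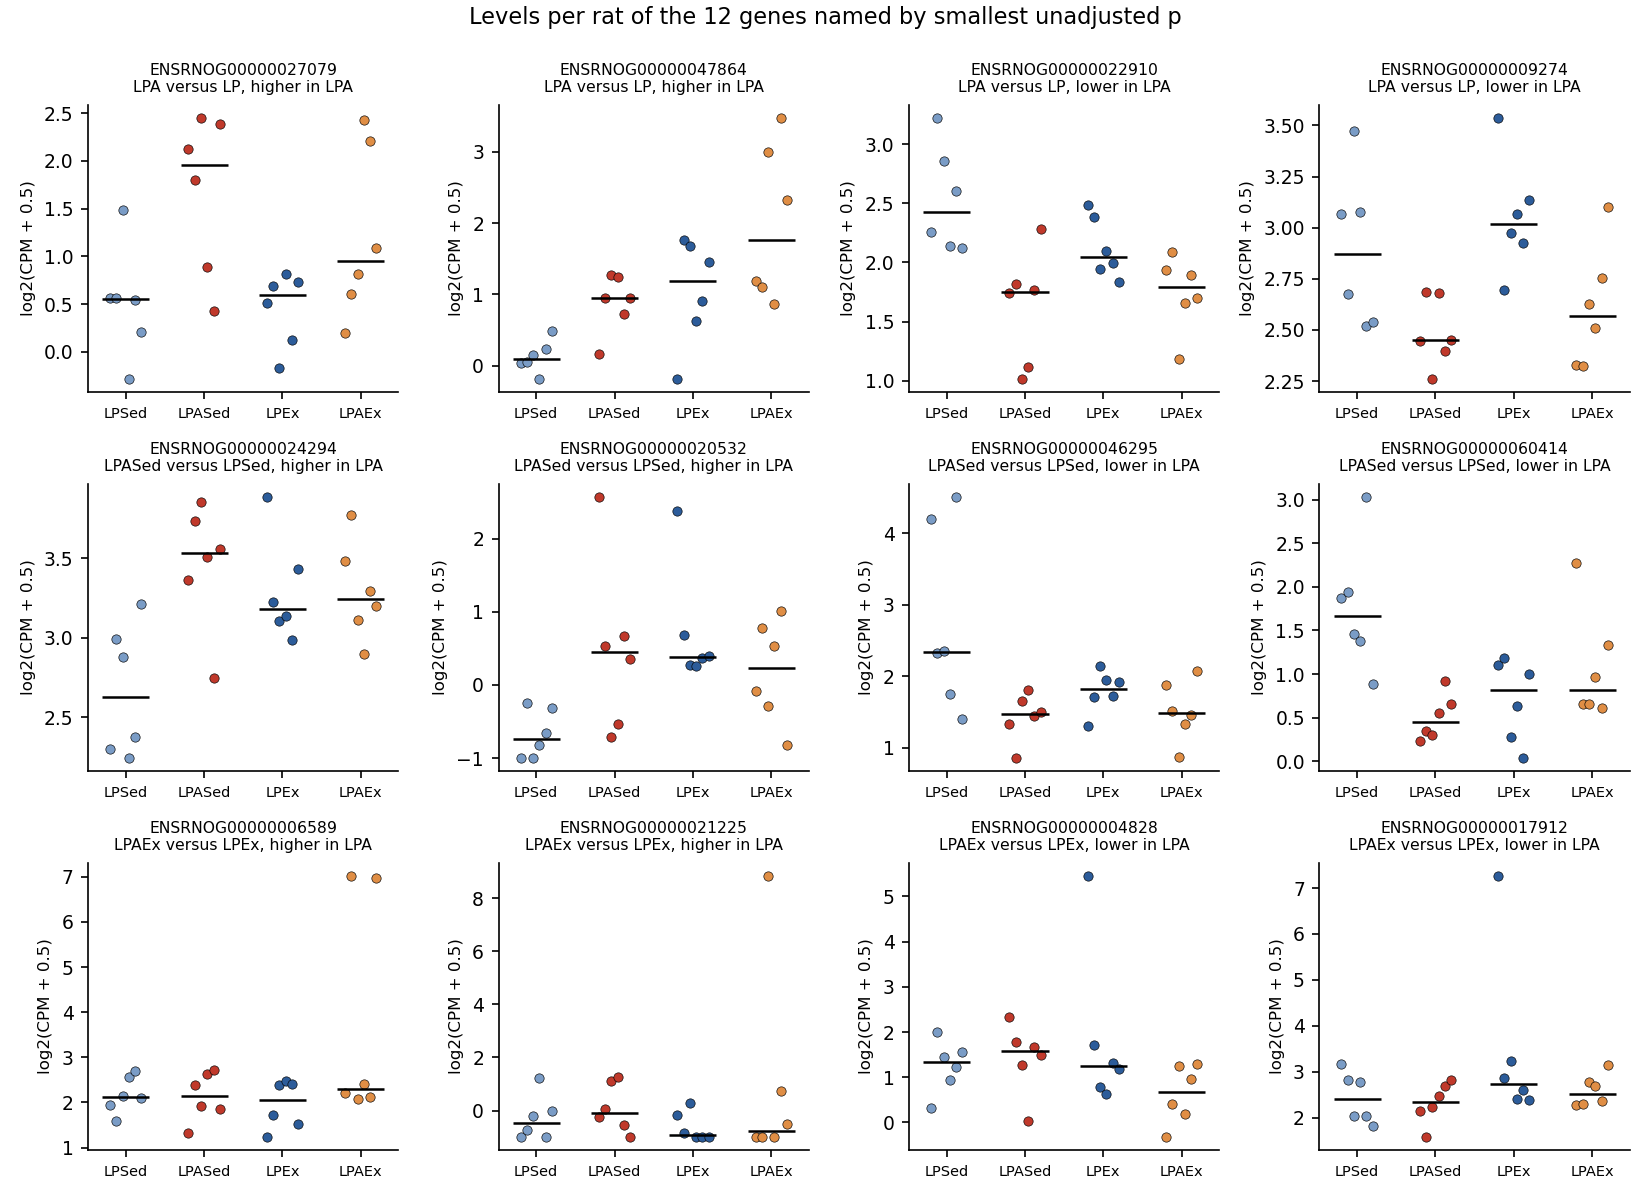
Level per rat, as log2(CPM + 0.5), of the 12 genes named for the 3 comparisons, with 1 point per rat, horizontal bars at the group median, and 1 panel per gene. In the top row LPA and LP overlap for each gene. Within LPAEx, ENSRNOG00000027079 was highest in rats 6 and 7, at 4.88 and 4.11 CPM. ENSRNOG00000047864 was highest there in rats 7 and 4, at 10.6 and 7.45 CPM. In the bottom row 1 or 2 rats stand far above the rest, such as LPAEx rat 4 at 456 CPM of ENSRNOG00000021225.

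Some genes beyond the named ones were also led by 1 rat. In 40 genes the highest of the 24 libraries was at least 8-fold above the next after adding 0.5 CPM, and 28 of these were led by LPEx rat 10, 11 by LPAEx rat 4, and 1 by LPAEx rat 11. Of the 40, 37 were among the 526 genes (3.37% of all genes) at an unadjusted p < 0.05 in LPAEx versus LPEx. The 40 were picked for 1 very high library, each time an exercised rat, so this overlap is no independent result. Without LPEx rat 10, 240 of the 526 (45.6%) remained at an unadjusted p < 0.05, and without LPAEx rat 4, 296 (56.3%) did. Without any 1 of the other 10 exercised rats, 72.1% to 87.1% remained. Of the 423 genes in sedentary rats, 53.0% to 90.1% remained without 1 of the 12 sedentary rats, lowest without LPSed rat 7, followed by 60.0% without LPASed rat 5.

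Genes that separated the arms completely were counted, without the number that random ordering of rats would give. Smaller arms separate more easily by random ordering alone, so no conclusion is drawn from these counts. With all 24 libraries, 0 of 15598 genes had every LPA rat above or below every LP rat (0%). In LPASed versus LPSed 36 genes did (0.231%), 21 higher and 15 lower in LPASed, (170 genes, 1.09%, without LPSed rats 7 and 13, which leaves 4 LPSed rats), and in LPAEx versus LPEx 8 did (0.0513%), 6 higher and 2 lower in LPAEx.

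The sedentary and exercised comparisons share no library, so their fold changes can be set side by side. Over the 15598 genes, which are not independent of one another, Pearson's r was −0.056 and Spearman's rho 0.00529. Of 15 genes at an unadjusted p < 0.05 in both, 4 went the same way and 11 opposite ways. Without LPSed rats 7 and 13 there were 17 such genes, 7 the same way and 10 opposite, with r = −0.031. The fold changes of LPA versus LP in prefrontal cortex, measured in rats with the same group and number, correlated with those in hippocampus at r = −0.047 over 15060 genes, with 49 genes at an unadjusted p < 0.05 in both regions, 21 the same way and 28 opposite ways. Without the hippocampal libraries of LPSed rats 7 and 13, r was −0.165 over 15153 genes, and of 61 genes at an unadjusted p < 0.05 in both regions 16 went the same way and 45 opposite ways. The prefrontal library labelled LPAEx rat 9 scored 1.09 on the hippocampal genes and −0.243 on the prefrontal genes. It was kept in that comparison, and no prefrontal fit without it was made. Prefrontal libraries of LPAEx rats 6 and 7 scored 0.744 and 0.562 on the prefrontal genes, and LPASed rats 5 and 9 scored 0.792 and 0.802. The other LPA libraries lay between 1.008 and 1.167, and the LP libraries between 0.914 and 1.152. Whether region make-up has a part in these counts and correlations was not tested.

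**Figure D5:**
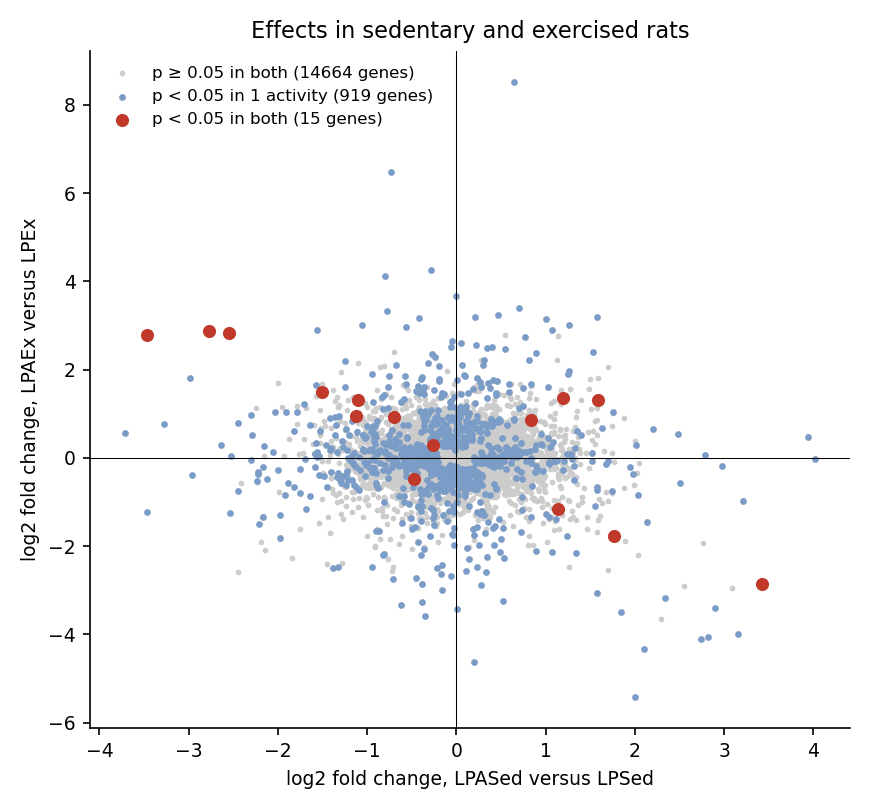
log2 fold change of LPAEx versus LPEx (vertical) against LPASed versus LPSed (horizontal), 1 point per gene, with the 15 genes at an unadjusted p < 0.05 in both comparisons in red. Of these, 4 lie in the same-sign quadrants and 11 in the opposite-sign quadrants.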

How the data were processed

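Counts of reads per gene were deposited by the authors, without normalization, for 32545 Ensembl IDs in 179 libraries. The authors used FastQC, Trim Galore, cutadapt, and STAR on Rnor_5.0, as listed in the submitters' processing notes, with versions not given in the sources used here. The 24 libraries were fitted in edgeR 4.0.16 (R 4.3.3) with its filterByExpr and TMM defaults, and genes were tested by quasi-likelihood, with Benjamini-Hochberg adjustment over all genes tested. LPA was compared with LP in an additive fit with activity, and each activity and their difference in 1 factor of 4 groups. A gene with FDR < 0.10 whose log2 fold change exceeded 1 in either direction was a DEG. SEs were the size of the log2 fold change divided by the square root of F, and CPM values were TMM-scaled over the 36 hippocampus libraries. Library measures were compared with permutation tests (exact in each activity, 100000 resamples with 12 rats per arm). Tissue-enriched genes reached 20 CPM in the tissue median and exceeded the other tissues 10-fold (0.5 CPM added), and region genes reached 10 CPM. DESeq2 1.42.0, limma 3.58.1 voom, and other settings were alternatives. The fits were also run on simulated counts that held no library standing apart from its group, unlike these data, and no result here rests on that run. Members and lists were chosen with earlier results of these data known. Named genes were the 2 with the smallest p in each direction of each comparison. Lists of genes by symbol were not used, since 0 IDs matched. No libraries were identical.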

Additional observations from a re-analysis of the deposited data

Results flagged for a closer look

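Within groups of 6, 19 of 84 sets of values had 1 rat standing apart from the other 5. Chance gives about 1 in 20 for sets not chosen by their values, a rate that does not apply here, since the genes were chosen by p and the library measures move together. In LPEx rat 10 the hippocampal score (0.469) and the share of brain-enriched counts (15.3%) were low, and the liver- (1.09%), colon- (0.215%) and muscle-enriched (0.287%) shares were high, as were ENSRNOG00000020532 (4.67 CPM), ENSRNOG00000004828 (43.3 CPM), and ENSRNOG00000017912 (153 CPM). In LPAEx rat 4 the hippocampal score (0.575) and the brain-enriched share (18.4%) were low and ENSRNOG00000021225 (456 CPM) was high. In LPASed rat 11 the liver- (0.922%) and colon-enriched (0.16%) shares and ENSRNOG00000020532 (5.43 CPM) were high. LPAEx rat 11 had the highest total count of its group, 20486774, and 4.32 CPM of ENSRNOG00000060414. In LPSed, rat 4 stood apart for ENSRNOG00000027079 (2.3 CPM), rat 7 for ENSRNOG00000060414 (7.67 CPM), and rat 5 for ENSRNOG00000021225 (1.86 CPM).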

How the results depend on the processing

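All alternatives kept 0 DEGs for LPA versus LP with activity as covariate, and so did each of the 24 fits that left out 1 library, in all 4 comparisons. DESeq2 gave 1 DEG in LPASed versus LPSed, 1 in LPAEx versus LPEx, and 1 for the difference between activities, ENSRNOG00000023386 (log2 fold change 5.64, FDR = 0.0737). Without LPSed rats 7 and 13, DESeq2 again gave 1 in LPAEx versus LPEx, ENSRNOG00000006589 (FDR = 0.0216), and 1 for the difference, ENSRNOG00000029478 (−6.71, FDR = 0.0711). With the share of the 10 highest genes as covariate, edgeR gave 1 for the difference, ENSRNOG00000013548 (−4.0, FDR = 0.0695). ENSRNOG00000023386, ENSRNOG00000029478, and ENSRNOG00000013548 were chosen after their values were seen, as were the DESeq2 and voom fits without LPSed rats 7 and 13 and the fit without those, LPEx rat 10, and LPAEx rat 4, which gave 0 DEGs. Rat numbers did not pair the samples, with correlations of same-numbered deviations from −0.156 to 0.0676, and with the rat number as a replicate block there were 0 DEGs and 677, 1215, 345, and 747 genes at an unadjusted p < 0.05 in the comparison with covariate, in sedentary rats, in exercised rats, and for the difference. Leaving out 1 library moved these counts from 353 to 613, from 304 to 670, from 477 to 754, and from 427 to 1024. LPSed rat 8 (670) and LPEx rat 3 (635 in sedentary rats, 1024 for the difference) moved a count by over 1.5 times. Without the filter on low counts they were 1659, 1351, 1572, and 1393. Further counts at an unadjusted p < 0.05 that differed by over 1.5 times were 790 in sedentary rats and 797 for the difference with limma voom, 701, 1100, and 868 with covariate, in sedentary rats, and for the difference with voom without LPSed rats 7 and 13, 843 in sedentary and 261 in exercised rats with only the 12 libraries compared, and 702 in sedentary rats without the 4 libraries. No named gene changed sign in any alternative, but limma voom gave smaller log2 fold changes in LPAEx versus LPEx, 1.62 for ENSRNOG00000006589, 2.06 for ENSRNOG00000021225, −1.04 for ENSRNOG00000004828, and −0.15 for ENSRNOG00000017912. The replicate block gave 0.50 for the first, −1.36 for the third, and −0.51 for the fourth. With the share of the 10 highest genes as covariate the third was −1.57, the fourth −1.06, and ENSRNOG00000046295 in sedentary rats −1.31, and with the region score as covariate the third was −1.88 and the fourth −1.34.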
